A study of Homo sapiens with 8 samples.

Results

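Genes that set or mark the balance between epithelial and mesenchymal state were examined in xenograft tumors. The tumor cells were HCC1937, a human breast cancer cell line of the triple-negative kind, which lacks estrogen and progesterone receptors and HER2 amplification. These 10 genes, called members here, were taken by symbol from the 18164 genes listed, and all 10 were found. They are the transcription factor genes ZEB1, ZEB2, SNAI1, SNAI2 and TWIST1, the epithelial splicing regulator genes ESRP1 and ESRP2, the epithelial transcription factor gene GRHL2, the E-cadherin gene CDH1 and the vimentin gene VIM. RNA came from 8 whole tumors grown from HCC1937 cells in inguinal mammary fat pads. The hosts were NCG mice, which are immunodeficient and carry mutated Prkdc and Il2rg on a NOD background. The NMN group of 4 tumors came from mice given 500 mg/kg/day of nicotinamide mononucleotide, from which cells make NAD+, and the Vehicle group of 4 from mice given the vehicle. Treatment began when tumors measured 100 to 150 mm3, and the age of the mice, the length of treatment and the make-up of the vehicle are not given in the sources used here. All tumors derive from 1 cell line in hosts that lack a working adaptive immune system. Whether the 8 tumors came from 8 mice is not stated, and p-values therefore measure only the spread between samples.

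Epithelial to mesenchymal transition (EMT) is the program by which epithelial cells lose cell to cell junctions and gain motility. ZEB1, ZEB2, SNAI1, SNAI2 and TWIST1 bind E-box DNA motifs, and the ZEB and SNAI proteins repress CDH1 and other junction genes. GRHL2 activates epithelial genes, and GRHL2 and ZEB1 repress each other in breast cancer cells. ESRP1 and ESRP2 direct epithelial splicing of transcripts such as those of CD44 and FGFR2 and are themselves repressed by ZEB1.

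Sequence upstream of the start is shown for ZEB1 and VIM, an EMT factor whose NMN and Vehicle values did not overlap and a mesenchymal marker whose values did, because E-boxes are the sites these factors read. The RefSeq table of promoters (GRCh38.p14) held 3 of the 10 members, with 7 windows for ZEB1, 1 for ZEB2 and 1 for VIM. Both sequences are the 250 bases before a RefSeq start, on the plus strand of chromosome 10, at chr10:31318167-31318416 for ZEB1 and chr10:17227991-17228240 for VIM, and E-boxes (CANNTG, which reads as CANNTG on either strand) are in capitals.
ZEB1: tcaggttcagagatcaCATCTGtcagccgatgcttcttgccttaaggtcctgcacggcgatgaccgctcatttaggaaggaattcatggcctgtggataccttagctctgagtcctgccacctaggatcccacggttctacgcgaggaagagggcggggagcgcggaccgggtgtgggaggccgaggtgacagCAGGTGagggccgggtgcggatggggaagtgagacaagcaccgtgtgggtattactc
VIM: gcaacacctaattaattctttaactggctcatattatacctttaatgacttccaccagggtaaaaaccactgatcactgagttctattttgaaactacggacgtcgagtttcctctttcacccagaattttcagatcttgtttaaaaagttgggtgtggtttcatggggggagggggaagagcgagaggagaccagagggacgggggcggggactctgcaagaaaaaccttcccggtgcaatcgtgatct
The ZEB1 window held 2 E-boxes, CATCTG starting 234 bases and CAGGTG starting 57 bases before the start. CAGGTG, or CACCTG on the other strand, is the E-box form preferred by ZEB and SNAI proteins. It was found in 2 of the 7 ZEB1 windows and in none of the single windows of ZEB2 and VIM. Any CANNTG was found in 4 of the 7 ZEB1 windows, the one shown among them, and in the ZEB2 window, as CACATG. Of all 35116 windows of this length, 17.5% held CAGGTG or CACCTG and 61.8% held any CANNTG. The VIM window held no E-box, which says only that these letters are not in this window.

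Levels are given in TPM, a measure scaled to transcript length and to a fixed total in each library, so levels of different genes can be set side by side. Read depth cannot be recovered from TPM and is unknown here, and counting intervals are therefore left out. The tumors carried the keratins of a basal epithelial line at high level, with KRT14 at 3456 TPM in NMN and 3839 TPM in Vehicle tumors, KRT5 at 3301 and 4423 TPM in the same order, and EPCAM at 150.1 TPM in NMN against 111 TPM in Vehicle. Libraries listed 16451 to 16662 genes above 0, and the correlation between any 2 libraries over tested genes ran from 0.962 to 0.988 (Pearson). Summed TPM of 15 skeletal muscle markers was 467 to 2721 in the Vehicle tumors, 95.1 to 99.2 in NMN 1 to 3 and 704 in NMN 4, which sets NMN 4 apart from its group in these genes. Values for human genes may include reads of mouse transcripts, and fewer cells of a type and less RNA per cell cannot be told apart in bulk tumor.

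The tumors held epithelial regulators at high level beside SNAI1, ZEB1, ZEB2 and TWIST1 at low level. Averaged over the 8 tumors, ESRP1 stood at 196 TPM, CDH1 at 170.1, VIM at 132, GRHL2 at 86.7, ESRP2 at 50.6 and SNAI2 at 43.5 TPM. SNAI1 followed at 2.33, ZEB2 at 1.78, TWIST1 at 0.616 and ZEB1 at 0.421 TPM. Within the Vehicle group ESRP1 lay at the 95.9th percentile of all listed genes and ZEB1 at the 22.5th. The gap between SNAI2 and SNAI1, 18.7-fold between their means, was the 1 step in this order at which the ranges of neighbours over the 8 tumors did not overlap. At each of the other 8 steps they overlapped. The order of neighbours held in all 8 tumors for VIM above GRHL2 and for ZEB2 above TWIST1, and in 5 of 8 for SNAI1 above ZEB2. High VIM therefore stood beside high CDH1 in every tumor, with CDH1 from 131 to 194.5 TPM and VIM from 107 to 165 TPM.

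**Figure D1:**
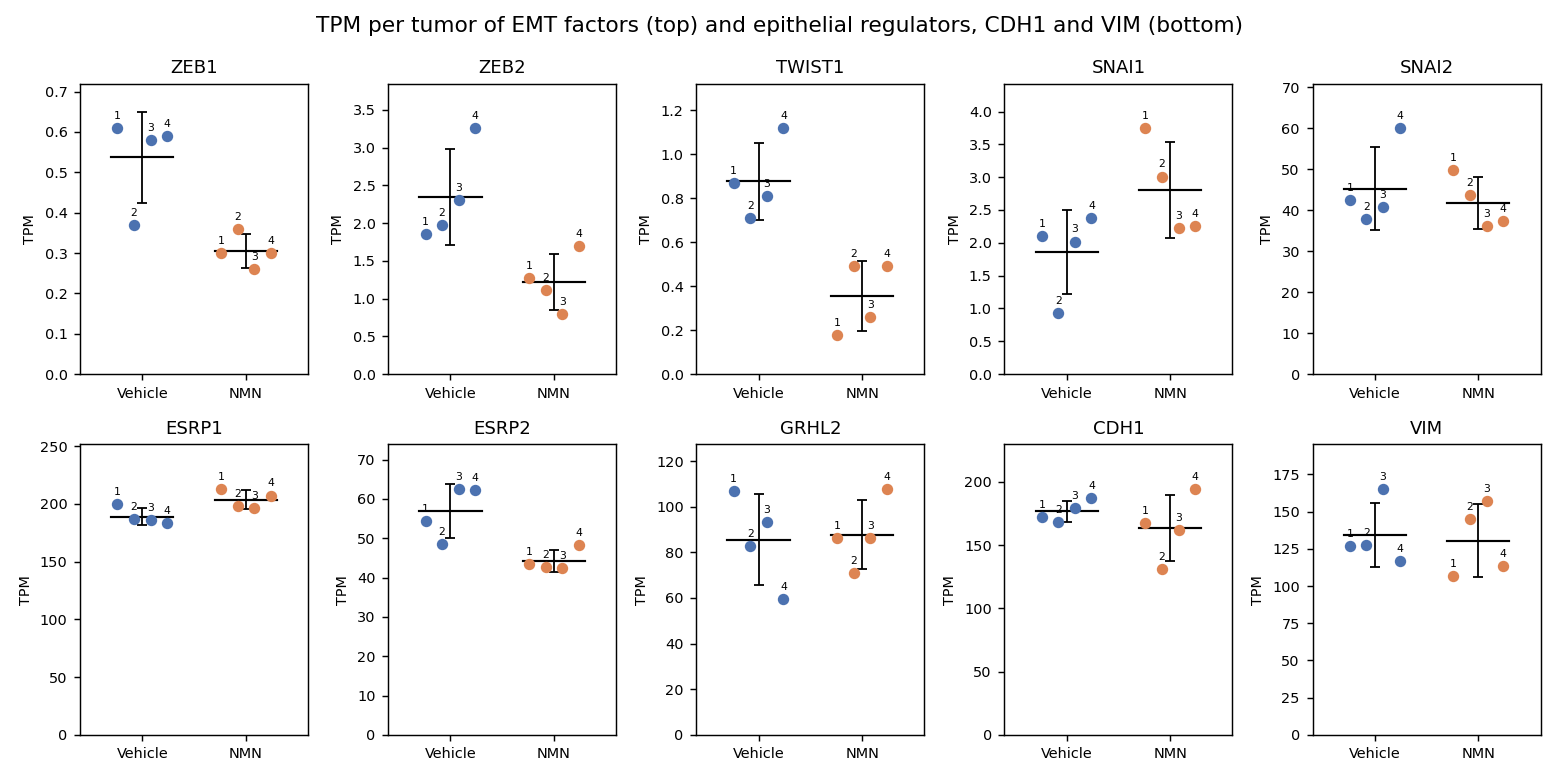
TPM (linear axis from 0) of the 10 genes in each tumor, numbered as in the labels, with blue points for Vehicle, orange points for NMN, and black bars for the mean ± SD of 4 tumors. In ZEB1, ZEB2, TWIST1 and ESRP2 all 4 NMN tumors lie below all 4 Vehicle tumors, by 0.01 TPM in the case of ZEB1, while the groups overlap in the other 6.

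The comparison of NMN with Vehicle asks how the NAD+ precursor altered tumor transcripts, in a series whose title concerns metastasis. In 4 of the 10 members, ZEB1, ZEB2, TWIST1 and ESRP2, every NMN tumor lay below every Vehicle tumor, and in 0 members every NMN tumor lay above. Among all 17981 genes above 0 in any library, 1.04% lay below in this way and 1.90% above. The members were chosen with earlier results of these data known, so these shares describe the background and do not test the members. Of 8 members tested with limma, 0 passed at an adjusted p under 0.05 and 2, ZEB2 and ESRP2, had an unadjusted p under 0.05, both lower. Over all 13358 tested genes 0% passed, while 2.15% had an unadjusted p under 0.05 and a lower mean in NMN tumors and 4.79% a higher one, 6.94% in all. The split was 640 higher and 287 lower as deposited, 681 and 441 with median-of-ratios scaling, and 640 and 514 after quantile normalization. The same 4 members stood without overlap with either scaling. Leaving out a tumor can only add members to such a count. Without NMN 4 CDH1 was added from below, where 6.15% of tested genes lay below, against 0.966% below and 2.08% above with all tumors. Without Vehicle 1 ESRP1 lay above without overlap, as did 4.73% of tested genes, and without Vehicle 4 SNAI1 did, as did 2.98%.

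ZEB2, a zinc finger repressor (chromosome 2, 144364364 to 144524583, minus strand), was at 1.85, 1.97, 2.31 and 3.26 TPM in Vehicle 1 to 4 and at 1.27, 1.11, 0.80 and 1.70 TPM in NMN 1 to 4. All NMN tumors were low, with 0.15 TPM between NMN 4, the highest of them, and Vehicle 1. The NMN mean was 0.520 times the Vehicle mean, and the log2 fold change of TPM + 1 was -0.59 ± 0.19 (SE, limma adjusted p = 0.456, 95% interval from -1.01 to -0.17). This scale understates changes of genes at low level, and with a pseudocount of 0.1 the log2 fold change was -0.90. ZEB1, the related repressor (chromosome 10, 31318495 to 31529814, plus strand), was at 0.61, 0.37, 0.58 and 0.59 TPM in Vehicle 1 to 4 and at 0.30, 0.36, 0.26 and 0.30 TPM in NMN 1 to 4. Vehicle 2 lay next to the NMN tumors, 0.01 TPM above NMN 2, which is the last digit the table gives. ZEB1 was under 1 TPM in every tumor and so was not tested in the model, and its NMN mean was 0.567 times the Vehicle mean.

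TWIST1, a basic helix-loop-helix factor (chromosome 7, 19020991 to 19117672, minus strand), was at 0.87, 0.71, 0.81 and 1.12 TPM in Vehicle 1 to 4 and at 0.18, 0.49, 0.26 and 0.49 TPM in NMN 1 to 4. The groups were separated by 0.22 TPM, and the NMN mean was 0.405 times the Vehicle mean. TWIST1 reached 1 TPM in 1 library and was not tested either. With no filter on low values the limma fit gave TWIST1 a log2 fold change of -0.47 ± 0.10 (adjusted p = 0.498) and ZEB1 one of -0.23 ± 0.07 (adjusted p = 0.510). The exact two-sided permutation test gave an unadjusted p = 0.0286 for each of ZEB1, ZEB2, TWIST1 and ESRP2, the smallest that 4 tumors against 4 allow. Every gene without overlap gets this value, so it restates the separation. Among the 1917 genes with a mean of 0.2 to 1 TPM, 1.93% lay below without overlap. TWIST2, the close relative of TWIST1, was at 1.07 ± 0.465 TPM in NMN and 0.492 ± 0.404 TPM in Vehicle tumors (SD, n = 4), and its groups overlapped.

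The SNAI pair gave other values. SNAI1, which encodes the repressor Snail (chromosome 20, 49982999 to 49988886, plus strand), was at 2.1, 0.93, 2.02 and 2.38 TPM in Vehicle 1 to 4 and at 3.75, 3.01, 2.22 and 2.25 TPM in NMN 1 to 4. NMN 1 and NMN 2 were above all Vehicle tumors and the other 2 were within their range. The log2 fold change was 0.43 ± 0.22 (limma adjusted p = 0.780, 95% interval from -0.04 to 0.90, exact permutation p = 0.114), or 0.25 without Vehicle 2, the lowest tumor. SNAI2, which encodes Slug, a factor expressed in basal mammary cells (chromosome 8, 48917604 to 48921740, minus strand), was at 42.5, 37.9, 40.7 and 60.1 TPM in Vehicle 1 to 4 and at 49.8, 43.7, 36.2 and 37.5 TPM in NMN 1 to 4. Vehicle 4 was the highest and the groups overlapped, with a log2 fold change of -0.10 ± 0.16 (limma adjusted p = 0.959, 95% interval from -0.44 to 0.24) that turned to 0.040 without Vehicle 4.

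Of the splicing regulators, ESRP2 (chromosome 16, 68229111 to 68238102, minus strand) was at 54.4, 48.6, 62.6 and 62.3 TPM in Vehicle 1 to 4 and at 43.5, 42.7, 42.5 and 48.3 TPM in NMN 1 to 4. NMN 4 was 0.26 TPM under Vehicle 2, and the other 3 NMN tumors lay close together below. The NMN mean was 0.777 times the Vehicle mean, with a log2 fold change of -0.35 ± 0.11 (limma adjusted p = 0.425, 95% interval from -0.59 to -0.11). ESRP1 (chromosome 8, 94641074 to 94707466, plus strand) was at 199.9, 187, 186 and 183 TPM in Vehicle 1 to 4 and at 213, 198, 196 and 207 TPM in NMN 1 to 4. Its coefficient of variation, 3.88% in NMN and 3.89% in Vehicle tumors, was the smallest of the 10 members. NMN 1 and NMN 4 lay above the Vehicle range, and the log2 fold change was 0.11 ± 0.08 (limma adjusted p = 0.903, 95% interval from -0.07 to 0.28). Values per gene do not show which exons these proteins included.

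GRHL2 (chromosome 8, 101492432 to 101669726, plus strand) was at 107, 82.7, 93.1 and 59.7 TPM in Vehicle 1 to 4 and at 86.1, 70.9, 86.1 and 108 TPM in NMN 1 to 4. Its range within Vehicle held 3 of the 4 NMN tumors, and the log2 fold change was 0.05 ± 0.17 (limma adjusted p = 0.987, 95% interval from -0.33 to 0.43). It changed sign without NMN 4 (-0.053) and without Vehicle 4 (-0.11), the tumors with the highest and the lowest value. CDH1, the adhesion molecule of epithelial junctions (chromosome 16, 68737225 to 68835548, plus strand), was at 172, 168, 179 and 187 TPM in Vehicle 1 to 4 and at 167, 131, 162 and 194.5 TPM in NMN 1 to 4. NMN 1 to 3 lay below every Vehicle tumor and NMN 4 above every one, with a log2 fold change of -0.12 ± 0.12 (limma adjusted p = 0.938, 95% interval from -0.37 to 0.13), or -0.21 without NMN 4 and -0.020 without NMN 2.

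VIM, the intermediate filament of mesenchymal cells (chromosome 10, 17228259 to 17237593, plus strand), was at 127.1, 127, 165 and 117 TPM in Vehicle 1 to 4 and at 107, 145, 157 and 113 TPM in NMN 1 to 4. The groups overlapped, and the log2 fold change was -0.05 ± 0.15 (limma adjusted p = 0.985, 95% interval from -0.37 to 0.27). It changed sign when NMN 1, NMN 4 or Vehicle 3 was left out (0.044, 0.016 and 0.059). NMN 4 lay outside the Vehicle range in 9 of the 10 members, below it in 6 and above it in 3. Some of these margins were small, with SNAI2 at 37.49 TPM against a Vehicle minimum of 37.86 and GRHL2 at 107.88 against a maximum of 106.96. Other NMN tumors also lay outside the range in members whose groups overlap, such as NMN 1 below it in VIM and above it in SNAI1 and ESRP1. The members in which NMN 4 lay below include ZEB1, ZEB2, TWIST1 and ESRP2, where this follows from the lack of overlap already counted. Of the 17981 genes above 0 in any library, NMN 4 lay outside the Vehicle range in 35.1%, below it in 6.1% and above it in 29.03%.

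**Figure D2:**
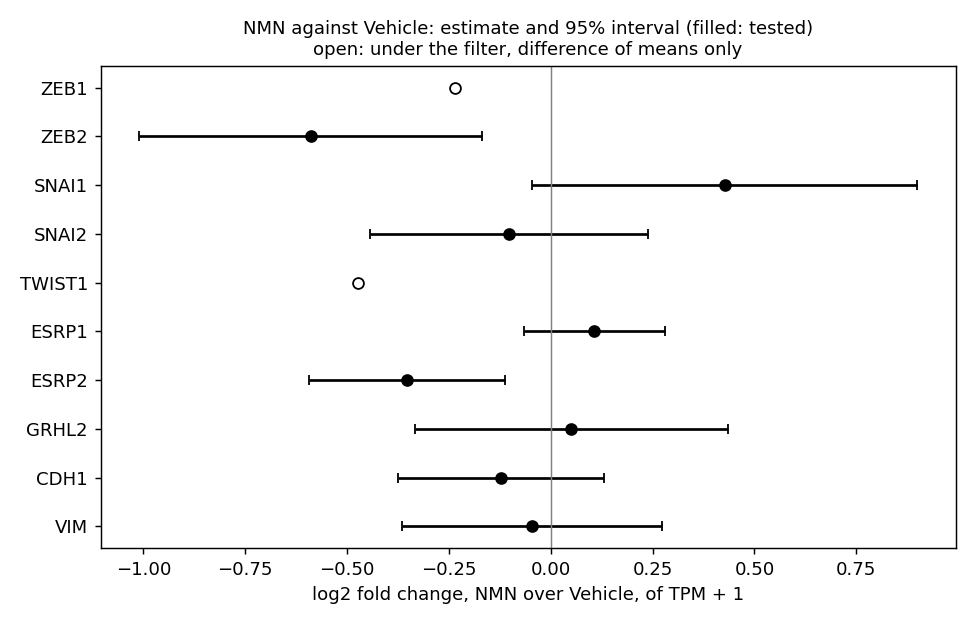
Log2 fold change of TPM + 1 (x axis), NMN over Vehicle, for each gene, with filled points and 95% intervals from limma for the 8 tested genes and open points for ZEB1 and TWIST1, which were under the filter. The intervals of ZEB2 (-1.01 to -0.17) and ESRP2 (-0.59 to -0.11) leave out 0 before adjustment, and neither passed after it.

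Ratios within a tumor do not depend on how the library was scaled and are given as a description with no test. The pairs were chosen with results known, and how often ratios of other gene pairs stand apart was not computed. A ratio with ESRP2 also carries the lack of overlap of ESRP2 already counted. The ratio of ESRP1 to ESRP2 was 3.68, 3.85, 2.98 and 2.94 in Vehicle 1 to 4 and 4.90, 4.65, 4.62 and 4.29 in NMN 1 to 4, with all NMN tumors above all Vehicle tumors. The ratio of SNAI2 to SNAI1 was 20.2, 40.7, 20.1 and 25.3 in Vehicle 1 to 4 and 13.3, 14.5, 16.3 and 16.7 in NMN 1 to 4, with all NMN tumors below. The ratio of CDH1 to VIM, a common index of epithelial state, ran from 1.08 to 1.603 in Vehicle tumors. In NMN tumors it was 1.57, 0.904, 1.03 and 1.72, with 2 tumors below the Vehicle range and 1 above, so the groups overlapped. The ratio of ZEB1 to ZEB2 overlapped too and ran from 0.176 to 0.330 over the 8 tumors.

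**Figure D3:**
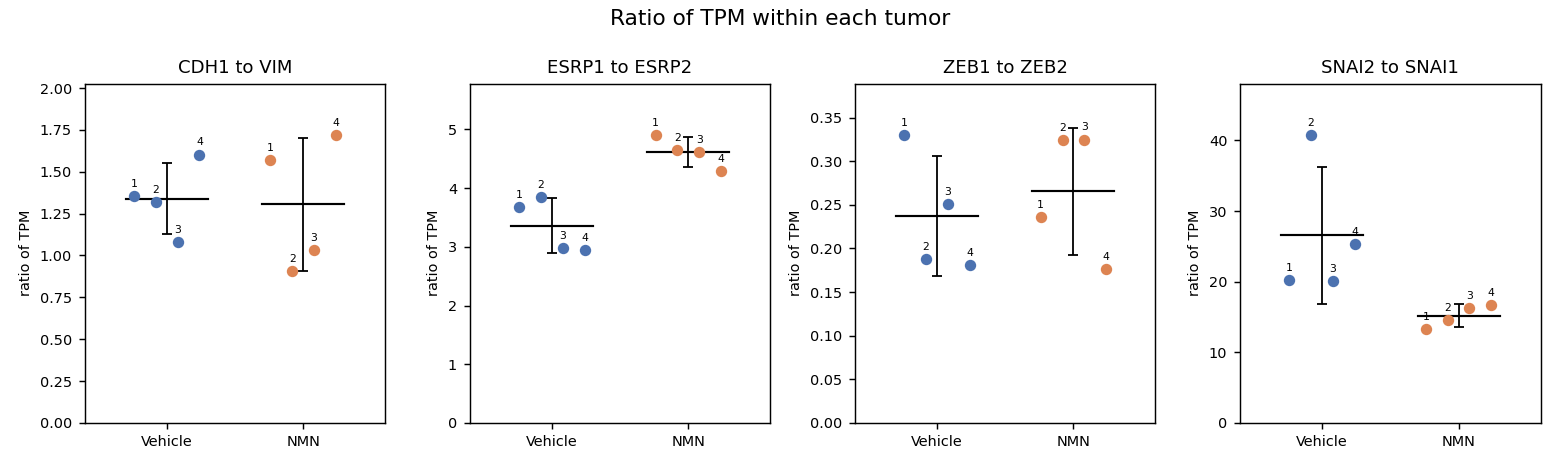
Ratio of TPM (y axis from 0) within each tumor for 4 pairs of members, with blue points for Vehicle, orange points for NMN, tumor numbers above the points, and black bars for the mean ± SD of the 4 ratios. The ESRP1 to ESRP2 ratios of the NMN tumors (4.29 to 4.90) lie above those of the Vehicle tumors, and their SNAI2 to SNAI1 ratios (13.3 to 16.7) lie below.

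Of 28 pairs of tested members compared over the 8 tumors, 1 passed after Benjamini-Hochberg adjustment over the pairs, ZEB2 with ESRP2. The 2 groups are separate in both of these genes, so the passing test includes the difference between groups. It does not show a relation within the groups, and no pooled correlation is given for the pair. Within the NMN group the tumors stood in the same order in both genes, NMN 3, NMN 2, NMN 1 and NMN 4 from low to high, while within Vehicle the orders differed. Deviations from the group means over the 8 tumors were also correlated, as a description. Largest in size among the 28 pairs were a Pearson r of 0.79 for SNAI1 and SNAI2 and 0.74 for ZEB2 and ESRP2. Next came -0.67 for SNAI2 and GRHL2 and 0.65 for ESRP1 and GRHL2. With the groups pooled, SNAI1 and SNAI2 had a Pearson r of 0.47 (exact permutation p = 0.235, adjusted p = 0.580), or 0.26 without Vehicle 2 and NMN 1. CDH1 and VIM had a Pearson r of -0.38 (exact permutation p = 0.376, adjusted p = 0.753) and a Spearman rho of -0.33 (exact permutation p = 0.428), and r was -0.12 without NMN 2 and NMN 4. After ZEB2 and ESRP2 the smallest p was that of SNAI2 and GRHL2, with a Pearson r of -0.67 (exact permutation p = 0.0683, adjusted p = 0.425) and a Spearman rho of -0.45 (exact permutation p = 0.267). It was -0.21 without Vehicle 4 and NMN 1, so the relation rests on those tumors.

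**Figure D4:**
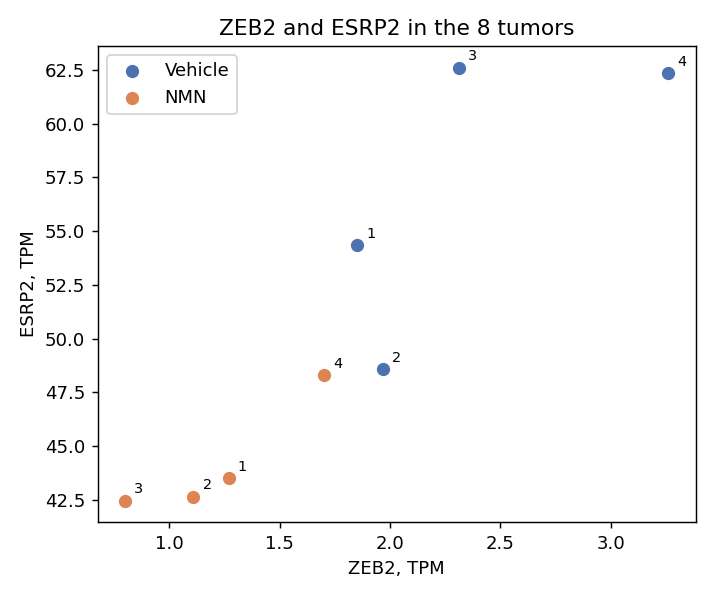
ESRP2 (y axis, TPM) against ZEB2 (x axis, TPM) in the 8 tumors, numbered as in the labels, with blue points for Vehicle and orange points for NMN; neither axis starts at 0. The NMN tumors lie at or under 1.70 TPM of ZEB2 and 48.3 TPM of ESRP2, and the Vehicle tumors lie above both.

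The genes with the pattern most like each tested member were sought among the 13357 other tested genes by Pearson r of log2(TPM + 1) over the 8 tumors, as a description with no p. Each is the highest of 13357 values over 8 tumors, and a high r follows in part from that choice. For GRHL2 the closest was RBM47, an RNA-binding protein of epithelial splicing (r = 0.98), followed by C1orf226 and CRYZL2P-SEC16B (r = 0.98 for each). For CDH1 the closest were GTPBP6, METTL2B and MARS1, a methionyl-tRNA synthetase gene (r = 0.99, 0.98 and 0.98), and for VIM they were NUDT6, FUT3 and WDR13 (r = 0.95, 0.94 and 0.93). For ZEB2 the closest were GPATCH4, SURF2 and PLXNA2, a semaphorin receptor gene, and for ESRP2 they were DDX60L, SAMD9L and ATAD1. The groups are separate in ZEB2 and ESRP2, so the likeness there includes the difference between groups, and no r is given. SNAI1 was closest to STK32C, DBNDD2 and FLVCR2 (r = 0.95, 0.95 and 0.94), and SNAI2 to U2AF1, NEURL1 and SLC6A11 (r = 0.98, 0.94 and 0.94). ESRP1 was closest to SLC25A1, the mitochondrial citrate carrier gene, PANK1 and STT3B (r = 0.96, 0.95 and 0.95).

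The wider EMT and epithelial program was read from 7 lists, in which 0 genes passed the test. The lists were chosen with earlier results of these data known, so shares over all tested genes describe the background and do not test the lists. Of 21 tested epithelial genes that ZEB1 represses or GRHL2 activates, 16 were higher on average in the NMN group, 6 with an unadjusted p under 0.05 and 3 without overlap, against 1 with an unadjusted p under 0.05 and a lower mean. Their median log2 fold change was 0.21, beside 0.0040 over all tested genes, of which 49.0% were lower on average in the NMN group. Of all tested genes 4.79% had an unadjusted p under 0.05 and a higher mean, and 2.15% had one and a lower mean. Above without overlap lay 2.08% of them. KRT8, a luminal keratin, was at 542, 315, 537 and 265 TPM in Vehicle 1 to 4 and at 879, 707, 909 and 841 TPM in NMN 1 to 4, a log2 fold change of 1.07 ± 0.21 (limma adjusted p = 0.221). The tight junction gene CLDN4 and the adhesion gene EPCAM had log2 fold changes of 0.52 ± 0.14 and 0.43 ± 0.16 (limma adjusted p = 0.341 and 0.553). MARVELD3, also of tight junctions, had one of -0.42 ± 0.16.

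Among 14 other epithelial transcription and splicing regulators, 11 were higher on average in the NMN group and 3 had an unadjusted p under 0.05, all higher. Over all tested genes 4.79% had such a p and a higher mean. ELF3, an epithelial ETS factor, was at 216 ± 75.3 TPM in NMN and 116 ± 37.9 TPM in Vehicle tumors (SD, n = 4), and GRHL1, a relative of GRHL2, at 106 ± 16.9 and 84.6 ± 6.98 TPM. KLF5 had a log2 fold change of 0.19 ± 0.09. OVOL1 and OVOL2, repressors of the ZEB genes, had log2 fold changes of -0.14 ± 0.28 and 0.12 ± 0.20. The list's median was 0.11, or 0.065 without NMN 4 and 0.19 without Vehicle 1. In the 6 genes of the cadherin and catenin complex the median was 0.023, or -0.035 without Vehicle 2. Log2 fold changes there were -0.30 ± 0.18 for the P-cadherin gene CDH3, 0.13 ± 0.09 for CTNNA1 and 0.11 ± 0.10 for CTNNB1, the alpha- and beta-catenin genes, and 0.03 ± 0.11 for CTNND1, which binds the cadherin tail.

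Of 11 tested other EMT transcription factors 9 were higher on average in the NMN group, and the median log2 fold change was 0.25, or 0.47 without Vehicle 1. FOXC1 was at 16.6 ± 2.23 TPM in NMN and 12.0 ± 2.19 TPM in Vehicle tumors (SD, n = 4), and FOXC2 and PRRX2 had log2 fold changes of 0.44 ± 0.20 and 0.58 ± 0.26. These 3 had an unadjusted p under 0.05 and overlapped between groups. Such a p with a higher mean was found in 4.79% of all tested genes. Of 18 tested mesenchymal genes 11 were lower on average, and the median was -0.14, or -0.26 without NMN 4 and -0.041 without NMN 1. An unadjusted p under 0.05 was found in 3 of them with a higher mean and in 2 with a lower mean. Over all tested genes these shares were 4.79% and 2.15%. The fibronectin gene FN1 and the calcium-binding protein gene S100A4 had log2 fold changes of 0.87 ± 0.25 and 0.92 ± 0.29 (limma adjusted p = 0.355 and 0.428). The matrix gene TNC had the lowest value of the list, -0.75 ± 0.28 (limma adjusted p = 0.579). The N-cadherin gene CDH2 was at 0.142 TPM in NMN and 0.182 TPM in Vehicle tumors and was not tested.

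Upstream of the EMT factors, 10 of 13 TGF-beta ligands, receptors and SMADs were higher on average in the NMN group. The median log2 fold change was 0.073 and turned to -0.043 without NMN 4. TGFBR3, the coreceptor betaglycan, had a log2 fold change of 0.48 ± 0.21, the ligand TGFB3 one of -0.49 ± 0.24 and the receptor kinase TGFBR1 one of -0.31 ± 0.16. Among 16 tested corepressors and stability factors 12 were higher on average, and the median was 0.099, or 0.043 without NMN 4. CTBP2, a corepressor that ZEB proteins recruit, was at 64.6 ± 6.42 TPM in NMN and 52.5 ± 5.95 TPM in Vehicle tumors (SD, n = 4), a log2 fold change of 0.29 ± 0.11 (limma adjusted p = 0.601). LOXL2, which stabilizes Snail, and RCOR1, a partner of the demethylase KDM1A, had log2 fold changes of 0.69 ± 0.32 and 0.25 ± 0.13, and SIRT1 one of 0.08 ± 0.15.

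**Figure D5:**
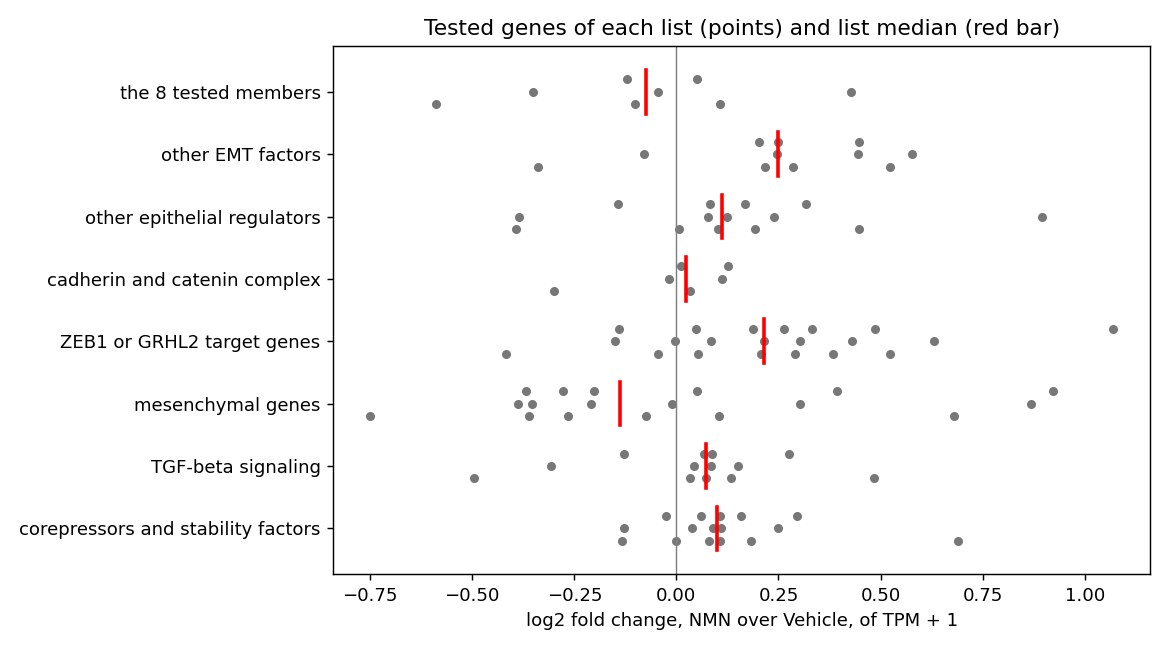
Log2 fold change of TPM + 1 (x axis), NMN over Vehicle, of each tested gene (grey points, offset vertically for legibility) in the 8 tested members and the 7 lists, with a red bar at each median. The medians run from -0.14 for mesenchymal genes to 0.25 for other EMT factors, and every list has points on both sides of 0.

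Markers of other cell types that also use ZEB2, ZEB1, TWIST1 or VIM were measured beside these values. Of 12 fibroblast markers 6 were tested, 5 lower on average in the NMN group and 1, FBLN1, higher. COL1A1, COL1A2 and COL3A1 had log2 fold changes of -0.60 ± 0.21, -0.61 ± 0.20 and -0.61 ± 0.24, with an unadjusted p under 0.05. Over all tested genes 2.15% had such a p and a lower mean. FAP, POSTN and FBLN1 had log2 fold changes of -0.30 ± 0.22, -0.16 ± 0.19 and 0.22 ± 0.12, with no unadjusted p under 0.05. The summed TPM of the fibroblast list was 187 to 302 in NMN and 243 to 348 in Vehicle tumors, while DCN and LUM were listed at 0 in all 4 Vehicle tumors. Of 10 listed myeloid markers, 7 were tested, with summed TPM of 54.7 to 94.8 in NMN and 57.3 to 79.4 in Vehicle tumors. The leukocyte gene PTPRC was at 0.29, 0.27, 0.30 and 0.39 TPM in Vehicle 1 to 4 and at 0.13, 0.15, 0.18 and 0.21 TPM in NMN 1 to 4, below without overlap. AIF1, of macrophages, was at 1.16 ± 0.194 TPM in the NMN group and 2.28 ± 0.851 TPM in the Vehicle group (SD, n = 4), while FCGR3A, an Fc receptor gene of myeloid and natural killer cells, was at 1.51 ± 0.533 and 0.565 ± 0.129 TPM, above without overlap. The macrophage marker ADGRE1 was listed at no more than 0.06 TPM in any tumor. The other lists overlapped between groups in summed TPM, with 6.98 to 9.70 in NMN and 6.15 to 7.91 in Vehicle tumors for endothelial markers and 98.3 to 226 and 167 to 366 for pericyte or smooth muscle markers. Schwann cell markers summed to 10.5 to 16.7 and 15.5 to 23.4 TPM and adipocyte markers to 40.3 to 253 and 33.5 to 133 TPM. Single markers in these lists lay apart in either direction. Of the endothelial list KDR was at 3.94 ± 0.975 TPM in NMN and 1.83 ± 0.633 TPM in Vehicle tumors, above without overlap, and TEK at 0.142 ± 0.0741 and 0.438 ± 0.0954 TPM, below without overlap. The pericyte marker MCAM was at 9.91 ± 0.953 and 7.57 ± 0.709 TPM, above without overlap. DES, of the same list, was at 65.0, 85.5, 251 and 78.8 TPM in Vehicle 1 to 4. In NMN 1 to 4 it was at 0.55, 0.67, 0.60 and 105 TPM, and its groups overlapped. These DES values enter the summed TPM of the list. LPL, the lipoprotein lipase gene of the adipocyte list, was at 0.275 ± 0.158 and 1.05 ± 0.264 TPM, below without overlap, and the skeletal muscle myosin MYH4 also lay below without overlap. NGFR, of the Schwann cell list, overlapped between groups, with a log2 fold change of -0.69 ± 0.22 (limma adjusted p = 0.441). Skeletal muscle markers in NMN 4 summed to 704 TPM, within the Vehicle range of 467 to 2721. In NMN 1 to 3 they summed to 95.1 to 99.2 TPM, most of it from MB and TNNI2. Of the 14 tested, 13 had an unadjusted p under 0.05 and a lower mean, and 1, MB, had such a p and a higher mean. ACTA1 was at 263, 261, 1024 and 178 TPM in Vehicle 1 to 4 and at 0.88, 0.36, 1.16 and 268 TPM in NMN 1 to 4. The part of these cell types in the values of ZEB1, ZEB2 and TWIST1 was not tested.

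Reads shared with other genes limit some values. In GENCODE 29 (GRCh38), exons of ZEB2 share 1299 bases, VIM 641 bases and ZEB1 366 bases with the antisense genes ZEB2-AS1, VIM-AS1 and ZEB1-AS1, and whether the libraries kept strand is not stated. ESRP2 shares 149 exon bases with NFATC3 on the other strand, which had a log2 fold change of -0.01 ± 0.20. Pseudogene copies named SNAI1P1 and ZEB2P1 are annotated, so reads of SNAI1 and ZEB2 could be split with them.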

How the data were processed

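RNA sequencing of 8 tumors, 4 NMN and 4 Vehicle, was deposited by the authors as TPM per gene in 1 table, with the unit per the file headers. Each library sums to 1000000. The labels' protocols name TRIzol extraction, RNA with an integrity number above 8.5, ribosomal RNA depletion and oligo(dT) selection. The build GRCh38.p13 and the tools RSEM 1.2.8, Bowtie2 2.2.5 and HISAT2 2.1.0 are named, without roles, per the submitters' processing notes. How mouse reads were handled is not stated.

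Genes with at least 1 TPM in at least 4 libraries, 13358 of 18164, were fitted by limma 3.58.1 in R 4.3.3 with a variance trend on log2(TPM + 1), two-sided, with Benjamini-Hochberg adjustment over all tested genes at 0.05. TPM keeps no depth, so no count model was used. The model was checked on simulated data. Single genes were also compared by an exact permutation test over 70 assignments, and pairs of members over all 40320 pairings. All members are named, with the 3 tested genes of smallest unadjusted p in each pathway list, genes that define a list, and the 3 genes most like each member in pattern, and 1 gene that this rule names is not reported here. Cell type markers are named where they define a list or, chosen after their values were seen, where the groups stood apart or where they shaped a list's sum. Members and lists were chosen with earlier results of these data known. Other settings tried were pseudocounts, filters, scalings, variance options, weights per library, a replicate block and each tumor left out. The removal of MTRNR2L genes and the recount of members without overlap were added after the data were seen.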

Additional observations from a re-analysis of the deposited data

Results flagged for a closer look

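Among 42 groups of 4 tumors checked for a value far from the other 3, 2 were noted, and chance gives about 1 in 20. ZEB1 in Vehicle 2 was at 0.37 TPM, below the 0.58 TPM of the next Vehicle tumor. The summed TPM of skeletal muscle markers in NMN 4 was 704.5, against 99.2 in the next NMN tumor.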

How the results depend on the processing

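None of the 8 tested members passed under any of the settings in which they were fitted. ZEB2 and SNAI1 were not fitted with the filter of at least 5 TPM. Log2 fold changes of ZEB2 (-0.90 to -0.24) and ESRP2 (-0.42 to -0.30) kept their sign in all 19 settings, as did those of SNAI1, ESRP1 and CDH1. For ZEB2 and ESRP2, whose groups do not overlap, leaving out a tumor or changing the pseudocount could not turn the sign. Filters, variance options and the replicate block leave the difference of means of any gene as it is. With pseudocounts of 0.1 and 5 the differences were -0.64 and -0.062 for ZEB1 and -1.16 and -0.13 for TWIST1. With library weights SNAI2 turned to 0.037 and GRHL2 to -0.035. With 1 tumor left out, ranges were -0.19 to 0.040 for SNAI2, -0.11 to 0.17 for GRHL2 and -0.14 to 0.059 for VIM. Over all genes 0 passed as deposited, 54 with library weights, 2 with the replicate block, and 0 to 54 with 1 tumor left out, where 54 were called without NMN 4, 1 without Vehicle 3 and 0 in the other 6 cases. Deviations of same-numbered tumors correlated at 0.026, 0.00094, -0.032 and -0.12 (Pearson). No shared deviation was seen, which cannot settle whether the replicate numbers pair the tumors. With the replicate block ZEB2 had a limma adjusted p of 0.369 and ESRP2 one of 0.366. Depth is unknown, so how far counting noise reaches into the values of ZEB1, TWIST1 and ZEB2 could not be computed.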
